A study of Drosophila melanogaster with 12 samples.

Results

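The odorant-binding protein (Obp) genes of Drosophila melanogaster were followed in heads over a day of light and dark and a day of constant darkness. Members were taken by gene symbol: every probe set that is not a control and whose only symbol in the platform annotation starts with Obp, with 1 probe set per gene. This gave 35 genes of the 10844 genes with a symbol of their own on the array, each with a single probe set. The 35 are part of the 51 RefSeq genes whose symbol starts with Obp, and all 35 symbols were the same in RefSeq. The other 16, among them Obp83a, Obp49a, Obp22a and Obp51a, were not analysed here, nor were 2 probe sets shared by an Obp gene and another gene. The related gene lush, whose older name is Obp76a, falls outside the choice by symbol and is given beside the family.

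The samples were whole heads of y w flies, a strain with the yellow body and white eye mutations, and all samples share this strain. Flies entrained to a light cycle with equal light and dark spans were collected every 4 h, in constant darkness (DD; circadian times CT4 to CT24, 6 arrays) and, on the day before, under light and dark (LD; Zeitgeber times ZT4 to ZT24, 6 arrays). Each sample pooled the heads of many flies, separated on sieves after freezing, and was hybridized to a single Affymetrix array. Sex and age are not given in the labels. Because the LD day came first in all cases, the effect of darkness and that of any other change between the days cannot be told apart.

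Obp genes encode small secreted proteins, held together by disulfide bridges, that carry hydrophobic molecules. In antennae and taste bristles they are made by support cells and released into the lymph around the sensory neurons, where they bind odorants, pheromones and tastants. Other members are made outside the olfactory organs, in fat body, glia or the male reproductive tract, and reach body fluids or seminal fluid. A level in whole heads therefore adds several tissues together, and fewer cells of a type and less RNA per cell cannot be told apart.

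Some arrays stood apart. The signal at the 3' end minus that at the 5' end of 3 control transcripts (actin, GAPDH and eIF-4a), a measure of RNA and labelling quality, was 2.64 (log2) at CT4, 3.45 at CT12 and 3.12 at ZT4, against 1.69 to 2.20 in the other 9 arrays. Male accessory gland markers (12 of 18 measured) had a mean level of 3.28 to 5.93 in DD and 3.22 to 3.94 in LD, highest at CT12 and next at CT4. Midgut markers (12 of 14) had 6.01 to 8.06 in DD and 6.02 to 8.38 in LD, and thoracic muscle markers (7 of 9) 6.79 to 8.71 in DD and 5.99 to 7.18 in LD. Fat body markers (5 of 5), a list of head and female fat body genes, had 10.2 to 11.2 in DD and 10.8 to 11.4 in LD, lowest at CT12. The part of these markers in the results below was tested only where a covariate is named. Photoreceptor markers (3 of 5 measured) were strong, at means of 9.72 to 12.1. Antennal markers (6 of 7 measured) had means of 2.82 to 5.35, and 2 of them lay above the median of all probe sets. Orco, the odorant co-receptor, was at 4.58 and lush, an antennal pheromone-binding protein, at 2.82. The 2 above the median were Ir8a at 5.35 and Ir25a at 4.965.

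The family divided into genes with very strong and genes with weak signals. Classes were set by the mean over all 12 arrays among the 13966 non-control probe sets: 10 of the 35 members (28.6%) lay in the top 10%, 7 between the median and the 90th percentile, 8 between the 25th percentile and the median, and 10 below the 25th percentile. The cuts were at 3.77, 4.95 and 7.12 (log2). Probe sets differ in how well they bind, so a class describes a signal and does not rank transcripts by abundance or say whether it lies above background. The 10 members of the top class were Obp56d, Obp99c, Obp44a, Obp19d, Obp56e, Obp56g, Obp99a, Obp18a, Obp99b and Obp57c.

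Obp56d, an antennal member, had the strongest signal. It was 11.67, 11.37, 11.63, 11.87, 11.96 and 10.97 from CT4 to CT24 in DD, and 11.96, 11.31, 11.72, 11.97, 11.95 and 11.84 from ZT4 to ZT24 in LD. The days overlapped, and CT24, ZT8 and CT8 were the lowest arrays. Obp99c, which has Obp99a, Obp99b and Obp99d as near neighbours on chromosome arm 3R, was 11.93, 11.50, 10.55, 11.74, 11.67 and 11.67 in DD and 10.85, 11.56, 11.72, 11.50, 11.48 and 11.53 in LD. Its low arrays were CT12 and ZT4, where the 3' minus 5' control signal was highest of all 12, and the part of RNA quality in these lows was not tested.

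Several genes known from antennae had weak signals here. Obp69a, an antennal gene linked to social behaviour, had a mean of 2.34, and Obp84a, also antennal, had 2.71, where the lowest value of any probe set on an array was 1.92 to 2.12. Obp59a, which is needed for sensing humidity, averaged 3.71, and the antennal Obp19a and Obp83b averaged 4.25 and 4.50. Of the 8 measured members of the antennal list, only Obp56d and Obp19d (10.70) were in the top class, and Obp28a (6.03) was above the median. The neighbours Obp58b, Obp58c and Obp58d averaged 4.49, 3.66 and 3.68. They are some of the Plus-C members, whose proteins carry extra cysteines.

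**Figure D1:**
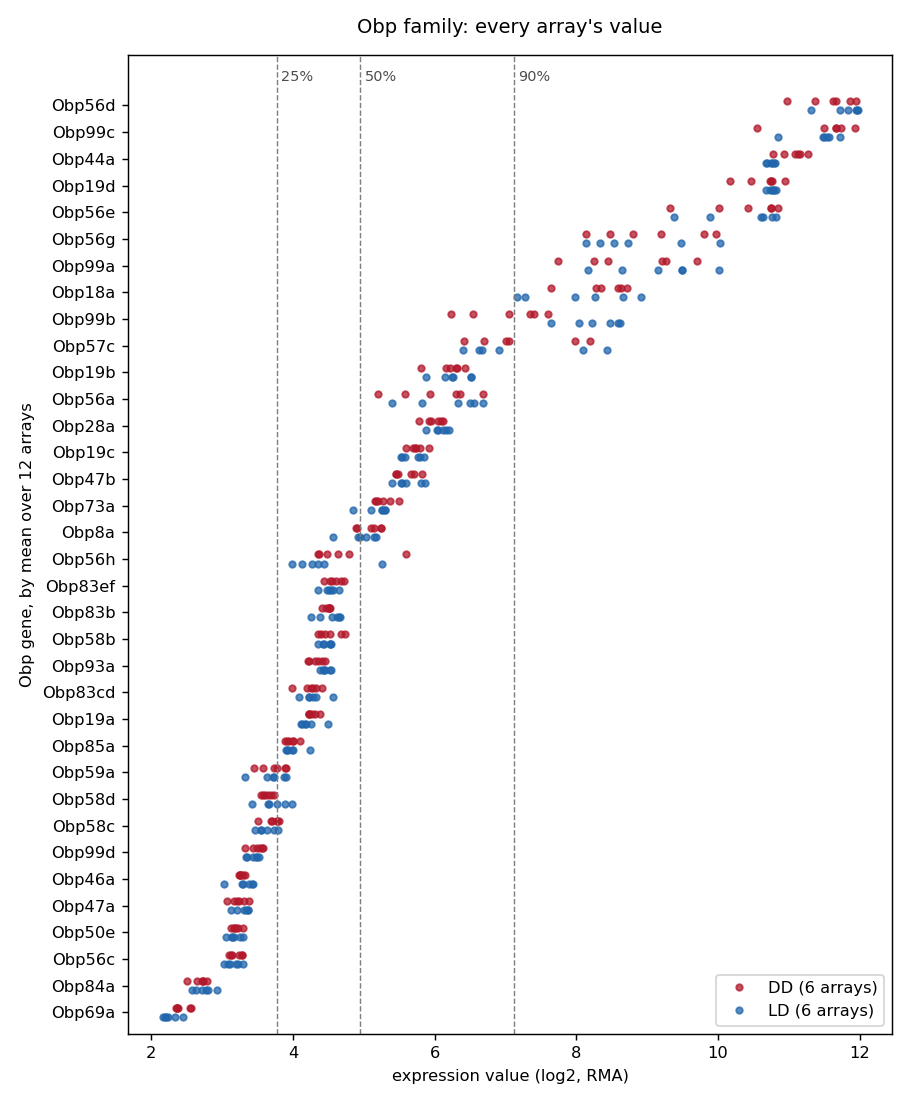
Expression value (log2, x axis) of each of the 35 Obp genes (y axis, by mean over 12 arrays) on every array, with the 6 DD arrays in red above the 6 LD arrays in blue; dashed lines mark the 25th, 50th and 90th percentiles of mean level over all probe sets. In Obp99b all DD points lie left of the LD points, and in every other gene the points of both days overlap.

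Strong members also varied more from array to array. Over the 12 arrays, 9 of the 35 members (25.7%) were among the 10% of probe sets with the largest SD (0.326 log2 or more): Obp99b, Obp57c, Obp99a, Obp56g, Obp18a, Obp56e, Obp56a, Obp56h and Obp99c. In the top level class the median ratio of highest to lowest array was 3.12-fold for members and 1.84-fold for all probe sets of that class. Below the 25th percentile it was 1.29-fold for members and 1.34-fold for all probe sets. The widest ranges were those of Obp99b, at 5.20-fold, Obp99a, at 4.82-fold, and Obp57c, at 4.11-fold. Obp44a and Obp19d varied least among the members of the top class, at 10.68 to 11.27 and 10.17 to 10.94 over all arrays. Their SDs of 0.204 and 0.199 were still above those of most probe sets (percentiles 74.7 and 73.4).

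**Figure D2:**
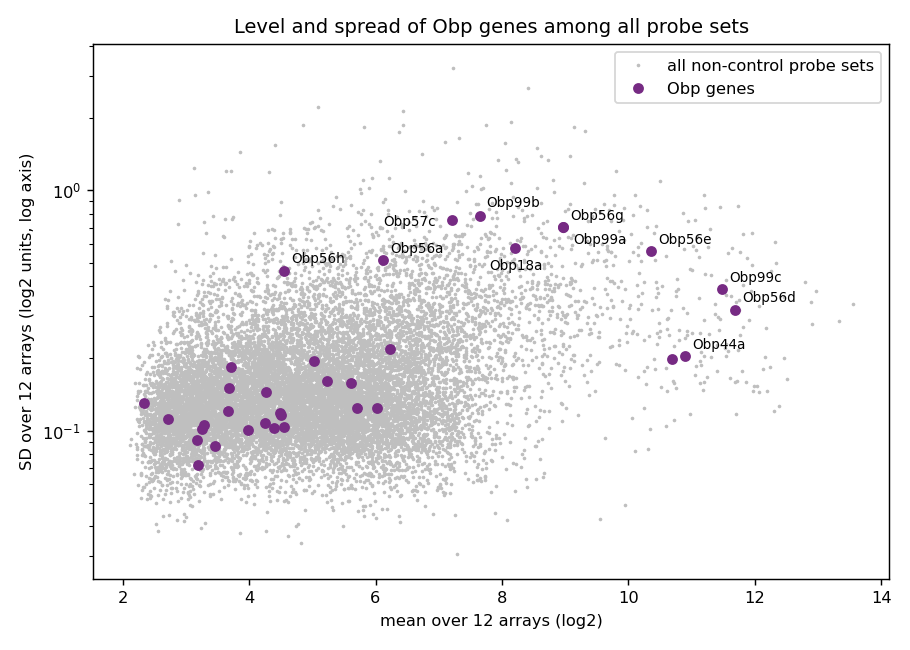
SD over 12 arrays (log2 units, log y axis) against mean level (log2, x axis) for all 13966 non-control probe sets (grey) and the 35 Obp genes (purple). Of the strong members most lie in the upper part of the cloud, from Obp99c at an SD of 0.389 to Obp99b at 0.781, while the members below the median level, except Obp56h at 0.464, lie within its bulk.

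The first comparison set the DD day against the LD day. Obp99b, a gene of the head fat body with sex-biased expression, showed the clearest difference. It was 7.05, 6.54, 6.23, 7.41, 7.34 and 7.61 (log2) from CT4 to CT24 in DD, and 7.65, 8.21, 8.47, 8.59, 8.04 and 8.61 from ZT4 to ZT24 in LD. All DD values lay below all LD values, with CT24 just under ZT4, and the gap at equal clock times was widest at 12 h (-2.24) and narrowest at 4 h (-0.60). The mean was 7.03 ± 0.537 in DD and 8.26 ± 0.374 in LD (SD, n = 6 each), so the signal was 2.35-fold lower in DD, with a difference of -1.23 ± 0.214 (log2, SE; 95% interval -1.70 to -0.763). The limma adjusted p over all 13966 probe sets was 0.0848, which missed the threshold of 0.05, and Obp99b stood in place 21 of all probe sets by p. CT4 minus ZT24, the step from one day to the next, was -1.57, and the lowest value was at CT12.

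Markers of other tissues also differed in level between the arrays of each day, although no marker passed in the DD minus LD test. All 5 fat body markers (Yp1, Yp2, Yp3, fit and Lsp2) had a negative DD minus LD difference, with a median of -0.353, and all 12 measured male accessory gland markers a positive one, with a median of 0.696. All 7 measured thoracic muscle markers were positive too, with a median of 0.941, and thoracic muscle was not used as a covariate. The male marker mean was 5.11 at CT4 and 5.93 at CT12 but 3.28 at CT16 and 3.36 at CT20, against 3.22 at ZT16 and 3.32 at ZT20. The fat body mean was 11.2 at CT16 and 11.0 at CT20, against 11.4 at ZT16 and at ZT20, and 10.2 at CT12 against 11.3 at ZT12. Both the fat body mean and Obp99b were lower in DD at all 6 times. Since the fat body list holds female fat body genes, amount of fat body and share of females cannot be told apart in its mean. With the fat body marker mean as a covariate the Obp99b difference was -0.926 ± 0.258 (limma adjusted p 1), and with the male marker mean it was -1.09 ± 0.229 (adjusted p 0.240). With the 3' minus 5' control signal as a covariate it was -1.20 ± 0.175 and passed (adjusted p 0.0234). Without CT12 and ZT4 it was -1.20 ± 0.180 (adjusted p 0.0599).

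Obp44a, which is made in glia of the brain and carries lipids, was higher in DD at 5 of 6 clock times. It was 11.16, 11.09, 10.77, 11.14, 10.93 and 11.27 in DD and 10.70, 10.68, 10.80, 10.80, 10.75 and 10.77 in LD. The SD was 0.179 in DD and 0.0497 in LD, and CT12 was the only DD array within the LD values. The difference was 0.309 ± 0.0784 (1.24-fold; 95% interval 0.137 to 0.482; limma adjusted p 0.470). Without CT12 and ZT4 it was 0.349 ± 0.0721 (adjusted p 0.215). Of the 3 measured of 4 glial markers, 1 had a positive difference, and their median was -0.0557.

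No member passed the threshold in the DD minus LD test: 0 of 35, against 0.0859% of all 13966 probe sets (12 called by limma, 0.0573% higher and 0.0286% lower in DD). At an unadjusted p under 0.05 there were 4 of 35 members (11.4%), against 4.41% of all probe sets. These were Obp44a and Obp69a, higher in DD (5.71%, against 2.33% of all probe sets), and Obp99b and Obp93a, lower in DD (5.71%, against 2.08%). Obp69a, near the bottom of the scale, differed by 0.166 ± 0.0656, and Obp93a by -0.13 ± 0.0571; both had a limma adjusted p of 0.999. Days that did not overlap were found in 1 of 35 members (2.86%), Obp99b, and in 0.408% of all probe sets, with DD below LD in 0.129%. A difference of the same sign at all 6 clock times was also found in 1 member, again Obp99b, and in 3.70% of all probe sets, with DD lower in 1.67%.

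Among the members with an unadjusted p above 0.05, the widest differences were -0.391 ± 0.242 for Obp99a, 0.323 ± 0.310 for Obp18a and 0.299 ± 0.212 for Obp56h (log2, SE), all with limma adjusted p 0.999. Of the 35 members, 19 had a positive and 16 a negative difference, with a median of 0.0197, where the median over all probe sets was 0, and 23 of 35 were smaller than 0.1 (log2) in either direction. The size had a median of 0.0693 for members and 0.0588 for all probe sets. The 95% interval was narrower in members that varied less: -0.246 to 0.0632 for Obp28a, -0.204 to 0.134 for Obp83b and -0.343 to 0.0959 for Obp19d. Obp83b lies below the median level, and a narrow interval of a weak signal bounds its transcript little. In members that varied widely the interval was wide, at -0.871 to 0.940 for Obp57c, -0.689 to 1.08 for Obp56g and -0.658 to 0.667 for Obp56e. Differences of more than 0.6 (log2) in either direction lie within the intervals of these last genes.

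**Figure D3:**
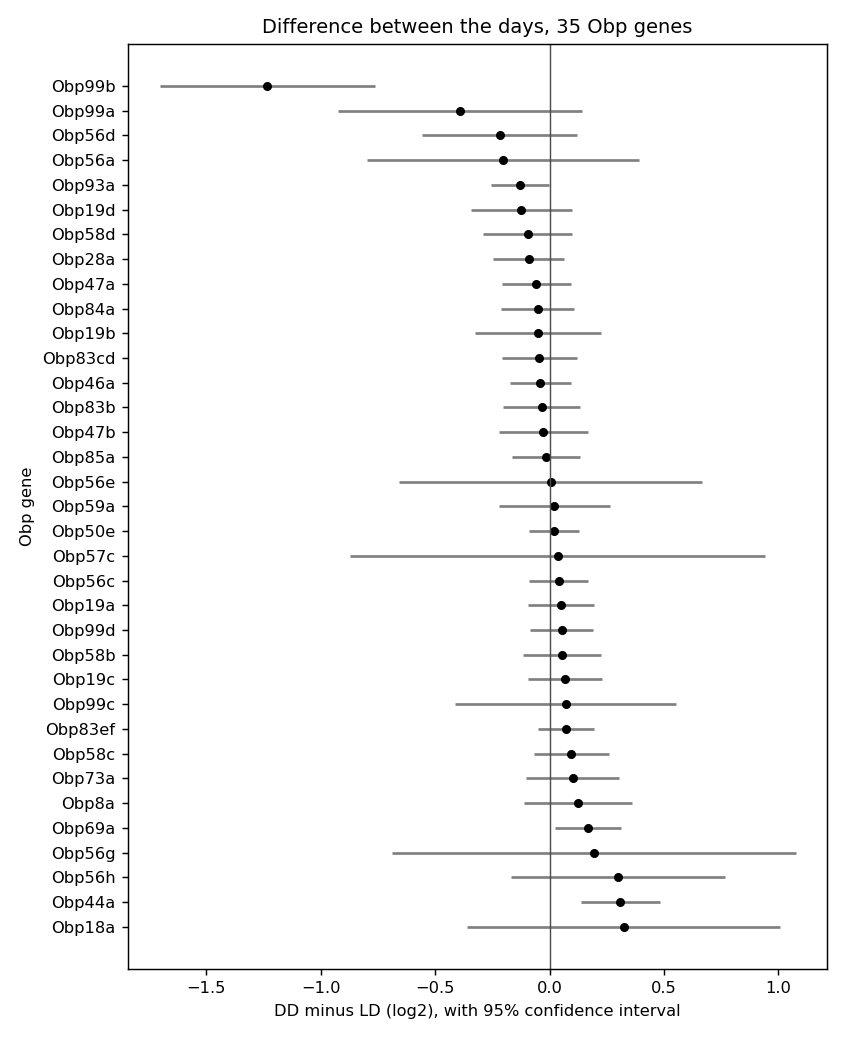
DD minus LD difference (log2, x axis; points) with its 95% confidence interval (bars) from the fit with clock time, for the 35 Obp genes (y axis). Obp99b stands apart at -1.23, the intervals of Obp44a, Obp69a and Obp93a also miss 0, and none of the 35 passed after adjustment over all probe sets.

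The second comparison asked whether members followed clock time. Obp99a, a neighbour of Obp99b, had the largest fitted 24-h amplitude of the 35 members. It was 8.45, 7.74, 8.25, 9.27, 9.71 and 9.20 from CT4 to CT24 in DD, and 8.16, 9.15, 9.50, 10.01, 9.49 and 8.65 from ZT4 to ZT24 in LD. Each day had a single smooth crest, at CT20 in DD and at ZT16 in LD, with the low at CT8 in DD and at ZT4 in LD. A 24-h cosine over both days gave an amplitude of 0.718 ± 0.171 (log2, SE, mean to peak), a 2.71-fold ratio of peak to trough, and a peak at 17.9 ± 0.909 h. The limma adjusted p was 0.994, so Obp99a was not called rhythmic.

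The course of Obp99a was also fitted to each day: the amplitude was 0.954 in DD and 0.825 in LD (SE 0.0938 each), and the peak was at 20.2 ± 0.376 h in DD and at 15.3 ± 0.434 h in LD. DD minus LD was -1.42 at 8 h, -1.25 at 12 h and -0.737 at 16 h, and 0.286 at 4 h, 0.217 at 20 h and 0.551 at 24 h. The test of a difference in course between the days gave an unadjusted p of 9e-05 in limma, the smallest of all 13966 probe sets, and an adjusted p of 0.858, which did not pass. The unadjusted p lay between 2e-05 and 0.000578 over 18 other settings, and the adjusted p between 0.279 and 0.990.

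The other members showed less. No member was called rhythmic, 0 of 35 against 0.00716% of all probe sets (1 called by limma). At an unadjusted p under 0.05 the count was 1 of 35 (2.86%), Obp99a, against 3.34% of all probe sets. The median amplitude was 0.0783 for members and 0.0719 for all probe sets. For the difference in course between the days, 0 members passed, against 0% of all probe sets, and at an unadjusted p under 0.05 there were 2 of 35 (5.71%), Obp99a and Obp19d, against 3.53%.

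The antennal gene Obp19d was level through LD and dipped in DD. It was 10.76, 10.47, 10.17, 10.75, 10.73 and 10.94 in DD and 10.68, 10.77, 10.79, 10.82, 10.73 and 10.76 in LD, with an SD of 0.275 in DD and 0.0476 in LD. CT8 and CT12 were its low arrays, and CT12 also stood first by 3' minus 5' control signal. The unadjusted p for a difference in course was 0.0256 in limma, and the adjusted p 0.858.

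After Obp99a the smallest p-values for rhythm belonged to Obp83cd, Obp83ef and Obp56h. The weak neighbours Obp83cd and Obp83ef, whose proteins join a pair of binding domains, had fitted peaks at 0.414 and 0.473 h and amplitudes of 0.128 ± 0.0527 and 0.0936 ± 0.0396. Obp83cd was 3.99, 4.27 and 4.40 in DD and 4.09, 4.26 and 4.57 in LD at its lowest, median and highest array. Obp83ef was 4.44, 4.58 and 4.72 in DD and 4.35, 4.52 and 4.65 in LD. In these genes the days overlapped almost fully and the course spanned less than 0.6 (log2).

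Obp56h, a gene that affects male mating behaviour and cuticular hydrocarbons, was high at 4 h of both days. It was 5.60, 4.36, 4.64, 4.80, 4.35 and 4.47 in DD and 5.25, 4.27, 4.13, 3.99, 4.43 and 4.36 in LD. Its amplitude was 0.339 ± 0.150, with a fitted peak at 3.64 h and a limma adjusted p of 0.994. CT4 and ZT4 were 2 of the 3 arrays with high 3' minus 5' control signal. At the third, CT12, the gene was at 4.64, below CT16, and these 3 arrays and CT16 were its 4 highest. Over 18 other settings the amplitude was 0.0628 to 0.446, with a lowest limma adjusted p of 0.874. These settings include the 3' minus 5' covariate and the removal of ZT4, CT4 and CT12. RNA quality and the clock time of 4 h cannot be told apart in this course.

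**Figure D4:**
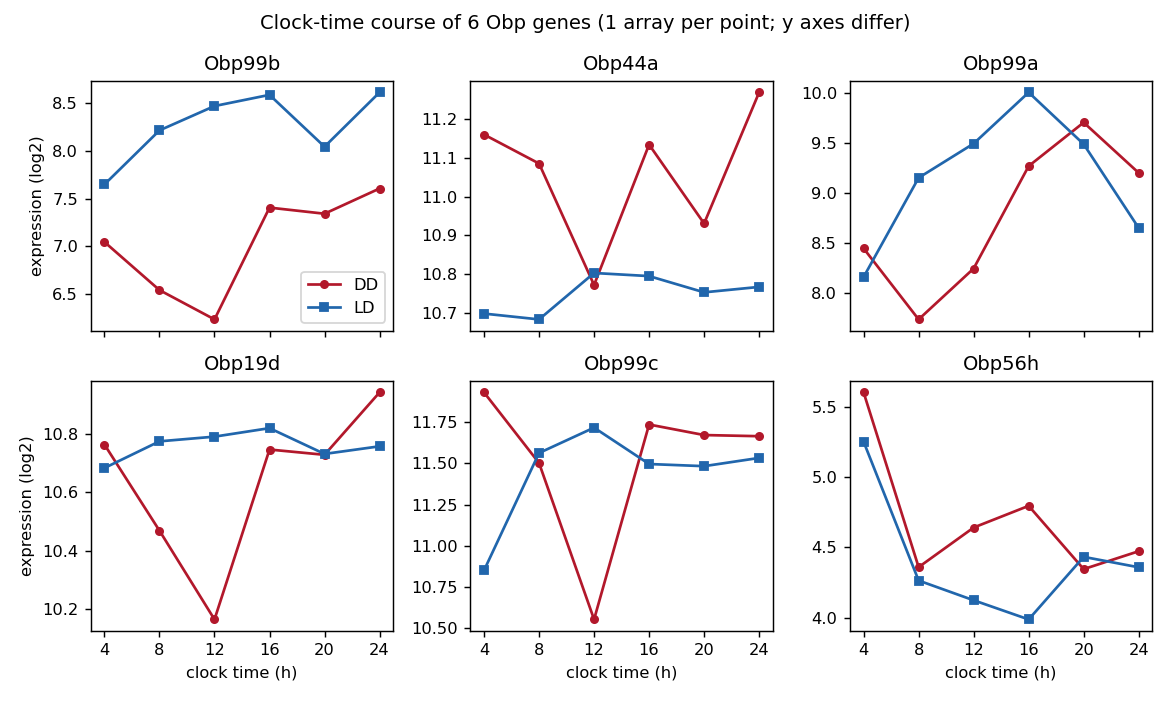
Expression (log2, y axes, which differ between panels) against clock time (h, x axis) for 6 Obp genes, with the DD day in red and the LD day in blue and 1 array per point. Obp99b lies lower in DD at every time, Obp99a crests at 20 h in DD and at 16 h in LD, and the dips of Obp19d and Obp99c in DD fall at CT12.

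Some of the 9 most variable members were high or low on the same arrays. Obp57c and Obp56g shared their 4 highest arrays, CT4, CT12, ZT4 and ZT20. At these Obp57c was 8.20 and 7.98 in DD and 8.44 and 8.09 in LD, and elsewhere it was 6.41 to 7.05 in DD and 6.40 to 6.90 in LD. Obp56g, which encodes a seminal fluid protein needed for the mating plug, was 9.80 and 9.97 in DD and 10.02 and 9.47 in LD on the same arrays, and 8.14 to 9.20 in DD and 8.14 to 8.72 in LD on the others. The first 3 of these arrays led in 3' minus 5' control signal, and CT4 and CT12 the highest male accessory gland markers. At ZT20 the control signal was 1.82 and the male marker mean 3.32, among the lower values of each. The part of RNA quality or of male tissue in these highs was not tested.

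A second set had its lows in common. Obp56a was lowest at CT24 (5.20), ZT8 (5.39) and CT8 (5.58), and Obp56e, listed as a seminal fluid protein gene, at CT24 (9.33), ZT8 (9.38) and ZT12 (9.89). Obp56d, which lies between them on chromosome arm 2R, was lowest at CT24, ZT8 and CT8 as well. Obp18a, on the X chromosome, was lowest at ZT8 (7.17), ZT12 (7.27) and CT24 (7.64). On these arrays the 3' minus 5' control signal was between 1.69 and 1.91, in the range of the 9 ordinary arrays.

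Position on the chromosome and course went together only in part. The Obp56 cluster holds 6 measured members within a short run of genes, and 4 of them (Obp56a, Obp56e, Obp56g and Obp56h) were among the most variable. All 4 had CT4 and ZT4 among their 4 highest arrays. This was not particular to the cluster: Obp18a and Obp57c, which lie outside it, also had CT4 and ZT4 among their 4 highest arrays. These arrays share their clock time of 4 h and a high 3' minus 5' control signal, which cannot be told apart here. CT12 was among the 4 highest arrays of Obp56g and Obp56h and not of Obp56a and Obp56e. Obp56c, in the same run, was weak and steady, at 3.02 to 3.30. In the Obp99 cluster the highest array was ZT16 for Obp99a, ZT24 for Obp99b and CT4 for Obp99c, and Obp99d was weak and steady (3.33 to 3.58). All 4 members of the Obp19 cluster stayed outside the most variable 10%. These sets were read from the values, and no test was made of them.

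**Figure D5:**
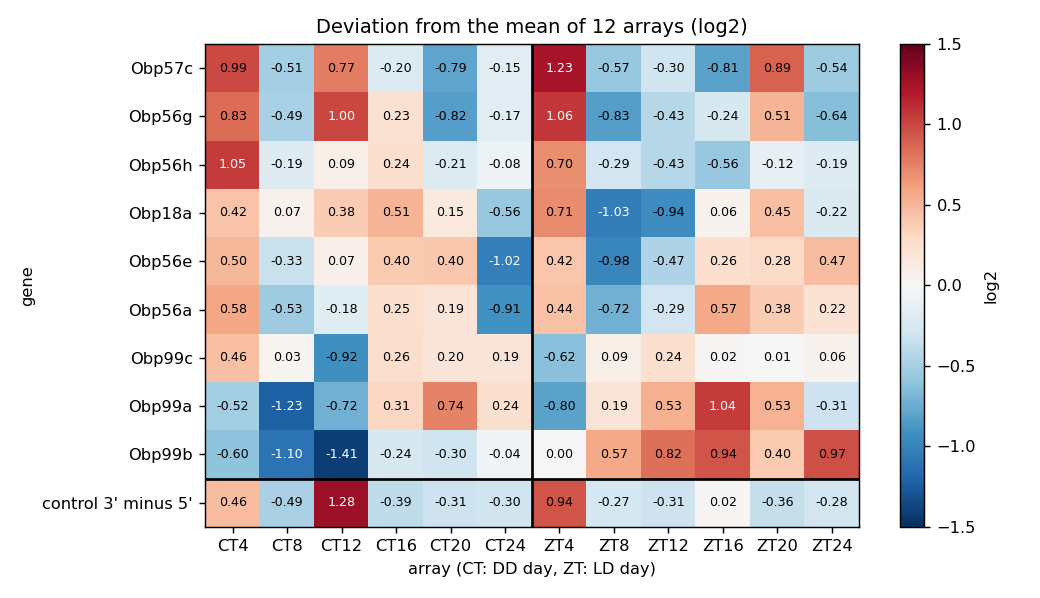
Deviation from the mean of 12 arrays (log2, colour and printed value) for the 9 Obp genes with an SD in the top 10% of all probe sets, and for the 3' minus 5' control signal (bottom row), with DD arrays left of LD arrays. Obp57c and Obp56g are above their means at CT4, CT12, ZT4 and ZT20, Obp56e and Obp56a are below theirs at CT24 and ZT8, and Obp99b is negative across DD and at or above its mean in LD.

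Grouped by known role, no member passed in any group. Of the 8 measured of 9 antennal members 0 rose and 0 fell, with a median DD minus LD difference of -0.0438. Of the 7 seminal fluid members 3 were measured (Obp8a, Obp56e and Obp56g), 0 passed, and their differences were 0.124, 0.00483 and 0.193, while the male accessory gland markers had a median of 0.696. None of the 3 taste members (Obp49a, Obp57d and Obp57e) was measured by a probe set of its own. Of the 2 members listed for head fat body and glia, Obp99b and Obp44a, 0 passed, and their differences were -1.23 and 0.309. The other 22 members had a median of 0.0276, with 0 called in either direction. Among them was Obp19b, a taste gene involved in sensing an amino acid, at -0.0527 ± 0.125.

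The receptor genes of the chemical senses lay mostly below the median signal, and none passed. Of 53 odorant receptor genes 0 were in the top 10% by signal and 9 were above the median, with a median DD minus LD difference of -0.0118. Of 43 ionotropic receptor genes 11 were above the median, with a median difference of 0.0158, and of 28 gustatory receptor genes 6, with a median of 0.0132. The 8 CheA and CheB genes, which encode proteins of pheromone-sensing taste hairs, had a median of 0.0642, and the 13 measured of 16 olfactory support and development genes -0.00600. In these 5 lists 0 genes passed for DD minus LD, against the 0.0859% of all probe sets, and 0 for rhythm. The unadjusted p for DD minus LD was under 0.05 in limma for 1 ionotropic receptor gene and for 0 genes of the other 4 lists. The share over all probe sets was 4.41%. For rhythm it was under 0.05 in limma for 1 ionotropic receptor gene and 1 CheA or CheB gene, against 3.34% of all probe sets.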

How the data were processed

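The deposited tables hold log2 expression values per probe set. RMA is the method that the submitters' processing notes name for them. Neither its version nor which arrays were normalized together is stated in the sources used here, and the same holds for filters. RMA brings arrays to a common distribution, and array medians were 4.93 to 4.96. Precision is limited by how many arrays there are.

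From the 14010 probe sets, 44 controls were left out. Genes were named through the platform annotation and RefSeq (Release 6 names only). Tests were run with limma 3.58.1 (R 4.3.3) over 13966 probe sets with Benjamini-Hochberg adjustment at 0.05, tested on simulated data. The DD minus LD and rhythm (moderated F) tests came from 1 fit with regime and the cosine and sine of clock time (24 h; 8 residual degrees of freedom). The course difference added their products with regime (6). With 1 array per time, errors are the scatter around the fit and may be technical.

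The members, lists and tests were chosen with earlier results of these data known. Any member may be named. Values at every time are given for the 3 strongest, for those of smallest p, and for members picked after their values were seen (the most variable). Role lists come from general knowledge. Alternatives changed normalization, filter, arrays, covariates and the variance model.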

Additional observations from a re-analysis of the deposited data

Results flagged for a closer look

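In 6 of 70 sets of 6 values (35 genes in each day), covering 4 genes, 1 array lay far from the other 5. Chance alone flags about 1 in 20 sets of normally spread values. The share over all probe sets was not worked out, so the count does not set the family apart. Obp56h was high at CT4 in DD (5.60, against 4.35 to 4.80 at the other DD times) and at ZT4 in LD (5.25, against 3.99 to 4.43). Obp99c was low at CT12 in DD (10.55, against 11.50 to 11.93) and at ZT4 in LD (10.85, against 11.48 to 11.72). The weak genes Obp19a (4.50, against 4.11 to 4.25) and Obp85a (4.24, against 3.90 to 4.00) were high at ZT8 in LD. The 3' minus 5' control signal was 2.64 at CT4, 3.45 at CT12, 3.12 at ZT4 and 1.91 at ZT8. Its part in these values was not tested, and since each array is a different clock time, array and time cannot be told apart.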

How the results depend on the processing

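Each array is 1 time point of 1 pool of heads, so a gene that varies widely has a wide interval whatever the setting, and weak probe sets bound little. Over 22 settings and 35 members (752 values of DD minus LD), 1 value passed: Obp99b with the 3' minus 5' control signal as a covariate, which made the count of members 1. The adjusted p of Obp99b was 0.0234 to 1 over the settings. No amplitude of a member passed in 647 values.

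Over all probe sets the DD minus LD count of 12 was 30 with the 3' minus 5' covariate, 0 with the fat body marker covariate, and 1 (without CT4) to 22 (without CT24) with 1 array left out, among these 7 without ZT12, 6 without ZT20, 5 without ZT16, CT8 or CT16 and 4 without CT20. The rhythm count of 1 was 2 with the 3' minus 5' covariate and 0 with trend and robust variance, without ZT4 and CT12, and without ZT4, CT4 and CT12, and 0 to 1 with 1 array left out. The marker covariates and the removal of CT4 besides ZT4 and CT12 were chosen after seeing the data. The marker covariates were run for DD minus LD only, not for rhythm or the course difference. The removal of CT4 besides ZT4 and CT12 was not run for the course difference. The cause of these changes was not tested. Averaging probe sets gave no other value, since each member has 1.

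Arrays of the same clock time deviated together with correlations of 0.322, 0.113, -0.00338, 0.547, 0.227 and 0.379. With clock time as the replicate block 11 probe sets and 0 members passed for DD minus LD, and Obp99b had an adjusted p of 0.179.

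In 17 members the uncalled DD minus LD difference changed sign in at least 1 setting. With the fat body covariate it was 0.0930 for Obp19b, 0.0845 for Obp19d, 0.0269 for Obp28a, -0.112 for Obp56e, -0.0492 for Obp56g, -0.148 for Obp57c, -0.0446 for Obp58b, -0.000128 for Obp58c and 0.101 for Obp99a. With the male marker covariate it was 0.0385 for Obp19b, -0.121 for Obp56e, -0.236 for Obp56g, -0.410 for Obp57c, -0.00806 for Obp58b and 0.0224 for Obp83cd. Without ZT4, CT4 and CT12 it was 0.00582 for Obp47b, -0.0239 for Obp50e, -0.0847 for Obp56e, -0.188 for Obp57c, -0.0766 for Obp59a and -0.00792 for Obp99d. Without ZT4 and CT12 it was -0.0199 for Obp50e, -0.0171 for Obp58b and -0.0491 for Obp59a. With the 3' minus 5' covariate it was -0.0357 for Obp56e and -0.0427 for Obp57c, and after quantile normalization -0.0445 for Obp56e. With 1 array left out it ranged from -0.164 to 0.0225 for Obp19b, -0.0718 to 0.0249 for Obp47b, -0.00677 to 0.0383 for Obp50e, -0.408 to 0.0309 for Obp56a, -0.164 to 0.302 for Obp56e, -0.0362 to 0.451 for Obp56g, -0.198 to 0.303 for Obp57c, -0.00363 to 0.0863 for Obp58b, -0.0657 to 0.0868 for Obp59a, -0.0425 to 0.0342 for Obp85a and -0.0769 to 0.278 for Obp99c.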
